A study of Neurospora crassa with 16 samples.

Results

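The 10 GH61 lytic polysaccharide monooxygenase genes described here were taken by their locus numbers from the AA9 family of the filamentous fungus Neurospora crassa. They make up 10 of the 9730 genes in the deposited table, which holds 14 AA9 loci in all. Each member was followed through 8 groups of mycelia, wild type (WT) and a strain labelled △stk-12 (hereafter the mutant), named for a serine/threonine protein kinase gene. Both strains had been inoculated as conidia into Avicel, a crystalline cellulose, in Vogel's salts and kept in batch culture under constant light. Mycelia of each strain were taken at 12h, 1d, 3d and 5d, with 2 libraries per group and 16 in all. The labels do not say whether the 2 libraries of a group came from separate cultures, so the p-values measure the spread between these libraries, which may be technical.

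Lytic polysaccharide monooxygenases are secreted copper enzymes that break the chains of crystalline cellulose by oxidation, opening the surface to hydrolytic cellulases. They need electrons, which in this fungus can come from secreted cellobiose dehydrogenase. Members of the family differ in which carbon of the sugar they oxidise and in whether they carry a cellulose-binding module. Growth on cellulose induces many of the genes in N. crassa together with the cellulases, through the activators CLR-1 and CLR-2.

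Reads assigned to genes ranged from 14946389 to 26466759 per library, and the members held between 323 and 250080 reads in a library. All 10 members passed the filter on low counts, which left 8983 genes for testing. The stk-12 transcript was lower in the mutant at every time, by 1.21 to 2.03 on the log2 scale with no overlap between genotypes, but was not absent, at levels of 1.21 to 6.27. The mating-type gene matA-1 had 0 reads in all 8 mutant libraries and 350 to 4396 in the WT libraries, so the strains also differ at this locus, and the effects of stk-12 and of the strain cannot be told apart. The WT 5d libraries differed most from each other, with a chi-square of 22.1 per degree of freedom against 3.91 in the closest pair, WT at 1d. In these bulk mycelia, fewer cells of a type and less RNA per cell cannot be told apart.

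GH61 transcripts were among the most abundant of the cultures early on. Levels are given as the deposited RPKM (reads scaled by gene length and library total) divided by the library's TMM factor. That scaling assumes most genes to be unchanged between libraries. Under it, 5342 of 8983 genes were called for the mutant against WT at 3d, and 7099 for WT from 1d to 3d. Most genes were thus called as changed in these comparisons, where the assumption is least secure. The summed GH61 level of WT was 43661 ± 2099 at 12h (SD, n = 2), 37357 ± 400 at 1d, 10373 ± 681 at 3d and 12169 ± 2044 at 5d. In the mutant it was 38692 ± 306, 32484 ± 2231, 37501 ± 4018 and 6782 ± 68.3 at the same times. The mutant therefore still held its early level at 3d, when WT had fallen, and lay below WT at 5d, with no overlap of libraries at either time. As a share of all RPKM, the 10 genes took 6.87%, 5.96%, 2.47% and 2.89% in WT, and 6.32%, 5.86%, 7.27% and 1.53% in the mutant. Such a share scales each library by its own RPKM total in place of the TMM factor. By this measure the fall of WT from 1d to 3d was smaller, and the mutant again lay above WT at 3d and below it at 5d.

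**Figure D1:**
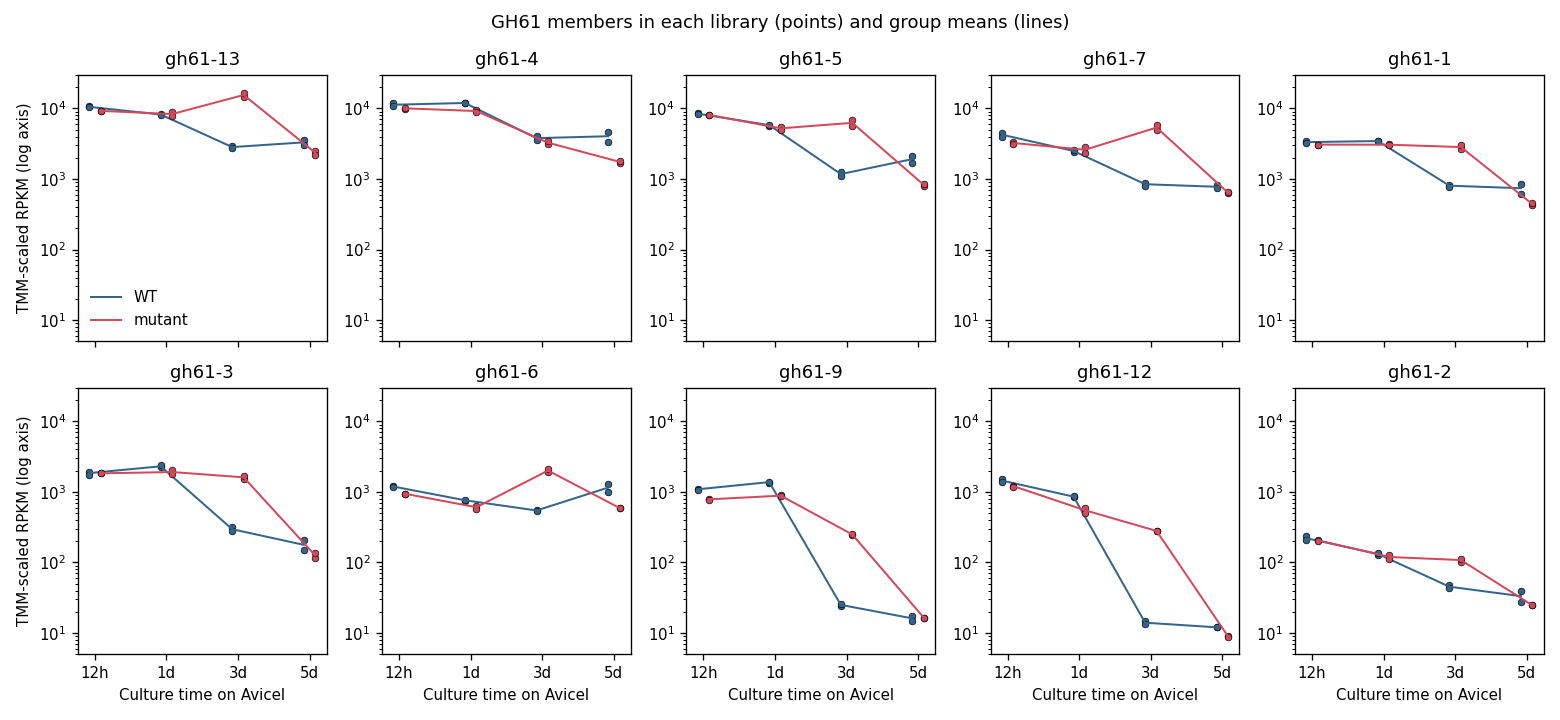
Level of each GH61 member (TMM-scaled RPKM, log axis) in each of the 16 libraries against culture time, with WT and mutant as separate colours and lines through the means of 2 libraries. The mutant points lie above WT at 3d for 9 members, and for gh61-4 they lie at 3115 and 3427 against 4004 and 3580 in WT.

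The abundance of the 10 members, compared per length as the mean deposited RPKM over the 8 groups, spanned a 69.8-fold range. First came gh61-13 (NCU07898), an enzyme that oxidises both the first and the fourth carbon, with a mean RPKM of 7209, the highest of all genes in the table. The second of all genes was gh61-4 (NCU01050), which oxidises the fourth carbon, with 6490. Next were gh61-5 (NCU08760), which acts on the first carbon, with 4391, gh61-7 (NCU00836), also a first-carbon enzyme, with 2388, and gh61-1 (NCU02240), a fourth-carbon enzyme, with 2070. These 5 are called the abundant members.

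The 5 scarce members began with gh61-3 (NCU02916), a fourth-carbon enzyme that also cuts the hemicellulose xyloglucan, at a mean RPKM of 1160. It lay 1.78-fold below gh61-1, the last abundant member. The first-carbon enzyme gh61-6 (NCU03328) followed at 978, gh61-9 (NCU05969) at 492, gh61-12 (NCU02344) at 483 and gh61-2 (NCU07760), which can oxidise both carbons, at 103. Scarce is meant among the 10, since 4 of these 5 still ranked among the first 168 of the 9730 genes and gh61-2 ranked 810th. The 5 abundant members together held 85.4% to 91.1% of the GH61 RPKM in each of the 8 group means. Within groups, neighbours in the order whose libraries overlapped were gh61-7 and gh61-1 in WT at 3d and 5d, gh61-4 and gh61-13 in WT at 5d, gh61-6 and gh61-12 in the mutant at 1d, and gh61-5 and gh61-7 in the mutant at 3d.

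A carbohydrate-binding module of family CBM1, which anchors enzymes to cellulose, was listed in the deposited CAZy column for gh61-5, gh61-7, gh61-1, gh61-3 and gh61-2. That is 3 of the 5 abundant and 2 of the 5 scarce members, although the deposited gene description of gh61-12 also names a fungal cellulose-binding domain. None of the 10 genes overlapped another annotated gene in RefSeq's NC12 assembly, and no member lay within fewer than 81 genes of another AA9 locus.

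At 12h the GH61 genes of the mutant were at or slightly below WT. The test of genotype passed for 4 of 10 members, all lower in the mutant, against 6.51% of all genes lower. The largest difference was that of gh61-9, whose level was 1100 and 1080 in WT and 795 and 775 in the mutant. Both mutant libraries lay under both WT libraries, with a log2 fold change of -0.47 ± 0.0753 (SE; adjusted p = 0.000554, edgeR quasi-likelihood test). The others lower in the mutant were gh61-7 (-0.39), gh61-6 (-0.34) and gh61-12 (-0.26), with adjusted p from 0.0200 to 0.0418. Each of these 3 lost its call when WT 12h replicate 1 was left out, with adjusted p from 0.182 to 0.380, and gh61-9 was then the 1 member called, as it was without mutant 12h replicate 1 or mutant 12h replicate 2. The calls of gh61-6 and gh61-12 rested on a narrow margin, lost in 10 and 9 of the 16 fits without 1 library, and that of gh61-12 also with library totals alone (adjusted p = 0.0544).

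At 1d a similar small deficit was seen, again mostly in scarce members. The test passed for 4 of 10 members, all lower in the mutant, against 18.0% of all genes lower. The level of gh61-12 was 842 and 875 in WT and 589 and 511 in the mutant, and that of gh61-9 was 1356 and 1404 against 904 and 869. For both genes every mutant library lay below every WT library, and both log2 fold changes were -0.64 (SE 0.0811, adjusted p = 2.67e-05 and SE 0.0754, adjusted p = 1.34e-05).

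The other calls at 1d were gh61-4 at -0.38 (adjusted p = 0.0169) and gh61-6 at -0.33 (adjusted p = 0.0208). These were lost with scaling by library totals alone, at adjusted p = 0.0737 and 0.138, leaving 2 members called, and also without WT 1d replicate 1, WT 1d replicate 2 or mutant 1d replicate 2. The median log2 fold change of the 10 members was -0.18 at 12h and -0.22 at 1d, against -0.03 and 0.02 over all genes tested.

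At 3d the mutant held far more GH61 transcript than WT. The test passed for 9 of 10 members, all higher in the mutant, against 29.4% of all genes higher. The most abundant of them, gh61-13, stood at 2932 and 2734 in WT and at 14306 and 16736 in the mutant. The 2 mutant values were the highest of all 16 libraries for this gene, and the difference was 5.48-fold, a log2 fold change of 2.45 ± 0.102 (SE; adjusted p = 3.95e-12). The first-carbon enzyme gh61-7 stood at 885 and 801 in WT and at 4953 and 5769 in the mutant. Its log2 fold change of 2.67 was the largest among the abundant members (SE 0.110, adjusted p = 3.49e-12).

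The other first-carbon enzyme among the abundant members, gh61-5, had levels of 1245 and 1102 in WT and 5580 and 6929 in the mutant at 3d, a log2 fold change of 2.41 ± 0.115 (adjusted p = 2.09e-11). The fourth-carbon enzyme gh61-1 had 831 and 776 against 2667 and 3005, a log2 fold change of 1.82 ± 0.116 (adjusted p = 8.76e-10). In neither gene did the genotypes overlap at 3d, and for gh61-5 the mutant values lay within the range of the 1d and 12h libraries of both strains.

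The largest relative differences at 3d were those of scarce members. The level of gh61-12 was 14.7 and 13.4 in WT and 277 and 283 in the mutant, 20.0-fold higher with a log2 fold change of 4.32 ± 0.0957 (adjusted p = 3.37e-15). For gh61-9 the values were 24.2 and 26.0 against 248 and 251, 9.95-fold higher with a log2 fold change of 3.31 ± 0.0832 (adjusted p = 1.14e-14). In both genes the mutant at 3d was nonetheless below each 12h and 1d library of either strain. The excess was over a WT level that had fallen since 1d, from 858 to 14.0 in gh61-12 and from 1380 to 25.1 in gh61-9.

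Smaller differences at 3d were seen in the remaining scarce genes. The xyloglucan-active gh61-3 stood at 317 and 275 in WT and at 1521 and 1701 in the mutant, with a log2 fold change of 2.44 ± 0.131 (adjusted p = 9.71e-11). For the first-carbon enzyme gh61-6 the levels were 552 and 540 against 1890 and 2127, and these mutant values exceeded all its other libraries (log2 fold change 1.88 ± 0.106, adjusted p = 1.82e-10). The least abundant member, gh61-2, had 47.5 and 43.2 against 103 and 113, the smallest of the 9 increases (log2 fold change 1.26 ± 0.126, adjusted p = 2.56e-07). Over the 10 members the median log2 fold change was 2.43, against -0.02 over all genes tested, and it was 2.41 for the 5 abundant and 2.44 for the 5 scarce members.

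Markers of conidia, the asexual spores that both started the cultures and can form in them, were mostly lower in the mutant at 3d. The 7 marker genes were eas, con-6, con-8, con-10, fl, csp-1 and csp-2. Their summed level was 2018 and 2016 in WT and 436 and 453 in the mutant at 3d, and 6 of the 7 were lower in the mutant, against 30.0% of all genes lower. The largest parts of the WT sum at 3d were con-10 and eas, with means of 1244 and 492 against 221 and 13.7 in the mutant. At 1d, 5 of the 7 were lower, against 18.0% of all genes lower. The sum ranged from 172 to 508 in the 8 libraries of 12h and 1d, and at 5d it was 1580 and 971 in WT and 1345 and 1307 in the mutant. These close sums at 5d hid opposite differences, with 3 markers higher in the mutant, against 30.6% of all genes higher, and 3 lower, against 30.9%. The largest part of the mutant sum at 5d was con-8, with a mean of 1028 against 310 in WT. No marker was at 0 in any group, and the part of conidia in the GH61 difference was not tested.

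**Figure D2:**
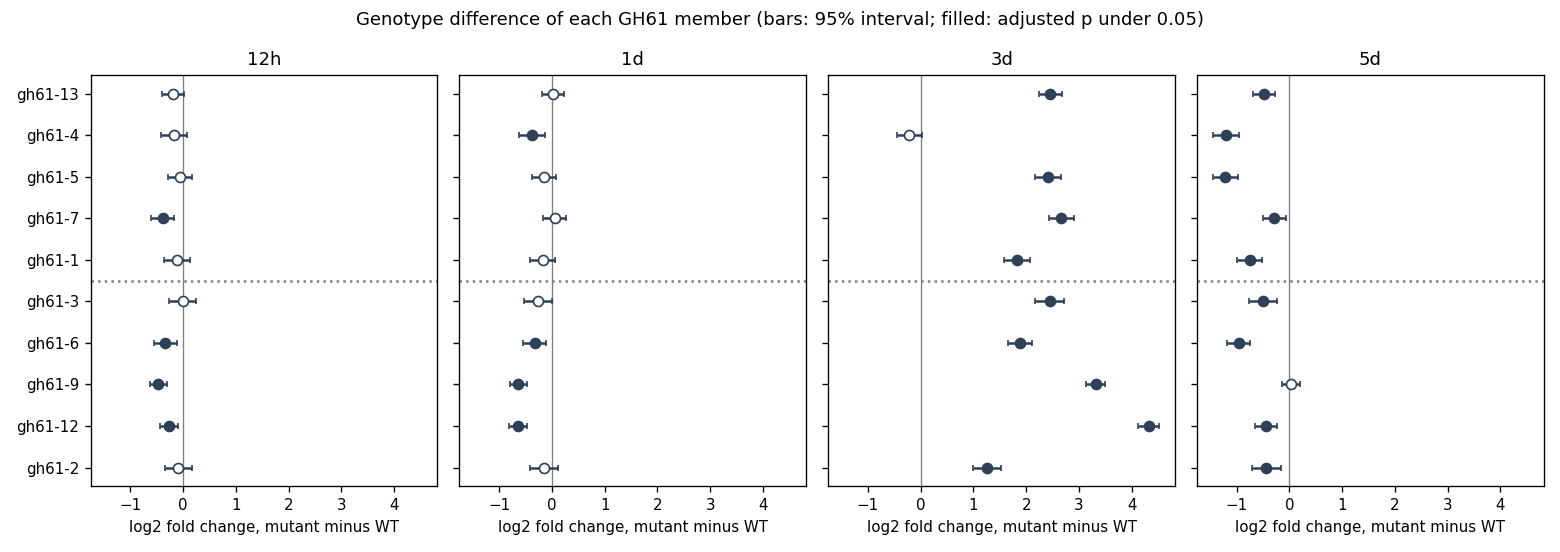
Log2 fold change of the mutant against WT for each GH61 member at 12h, 1d, 3d and 5d, with bars for the 95% interval filled points where the adjusted p passed 0.05 and a dotted line between abundant and scarce members. At 3d the points run from 1.26 to 4.32 for 9 members and gh61-4 lies at -0.21; at 5d they run from -1.22 to 0.03.

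One abundant member stood apart at 3d, and it was singled out here after its values were seen. The fourth-carbon enzyme gh61-4 had levels of 4004 and 3580 in WT and 3115 and 3427 in the mutant, a log2 fold change of -0.21 with a 95% interval of -0.46 to 0.03 (adjusted p = 0.122). That interval lay below those of the other 9 members, of which the lowest, that of gh61-2, began at 0.99. Scaling by library totals alone put it lower in the mutant, by -0.44 (adjusted p = 0.000784), and the call was also made without WT 5d replicate 1, where the value was -0.21 (adjusted p = 0.0220).

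The balance between the most abundant pair can be read within single libraries, where no scaling enters. The RPKM of gh61-4 over that of gh61-13 was 1.09 and 1.05 in WT at 12h, 1.40 and 1.52 at 1d, 1.37 and 1.31 at 3d, and 1.32 and 1.11 at 5d. In the mutant it was 1.07 and 1.10 at 12h and 1.09 and 1.12 at 1d, then 0.218 and 0.205 at 3d and 0.666 and 0.830 at 5d. So gh61-4 exceeded gh61-13 in all 8 WT libraries and the 4 early mutant ones, and lay below it in the 4 late mutant ones. An exact permutation test of 2 against 2 libraries cannot go below p = 0.333, so none is given for this ratio.

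As a share of the GH61 RPKM, gh61-4 made up 36.5% in WT and 8.74% in the mutant at 3d, with 8.99% and 8.49% in the 2 mutant libraries. The share of gh61-13 was 27.3% in WT and 41.4% in the mutant. At 12h the composition was close in the 2 strains, with gh61-4 at 25.9% in both and gh61-13 at 24.2% in WT and 23.9% in the mutant.

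**Figure D3:**
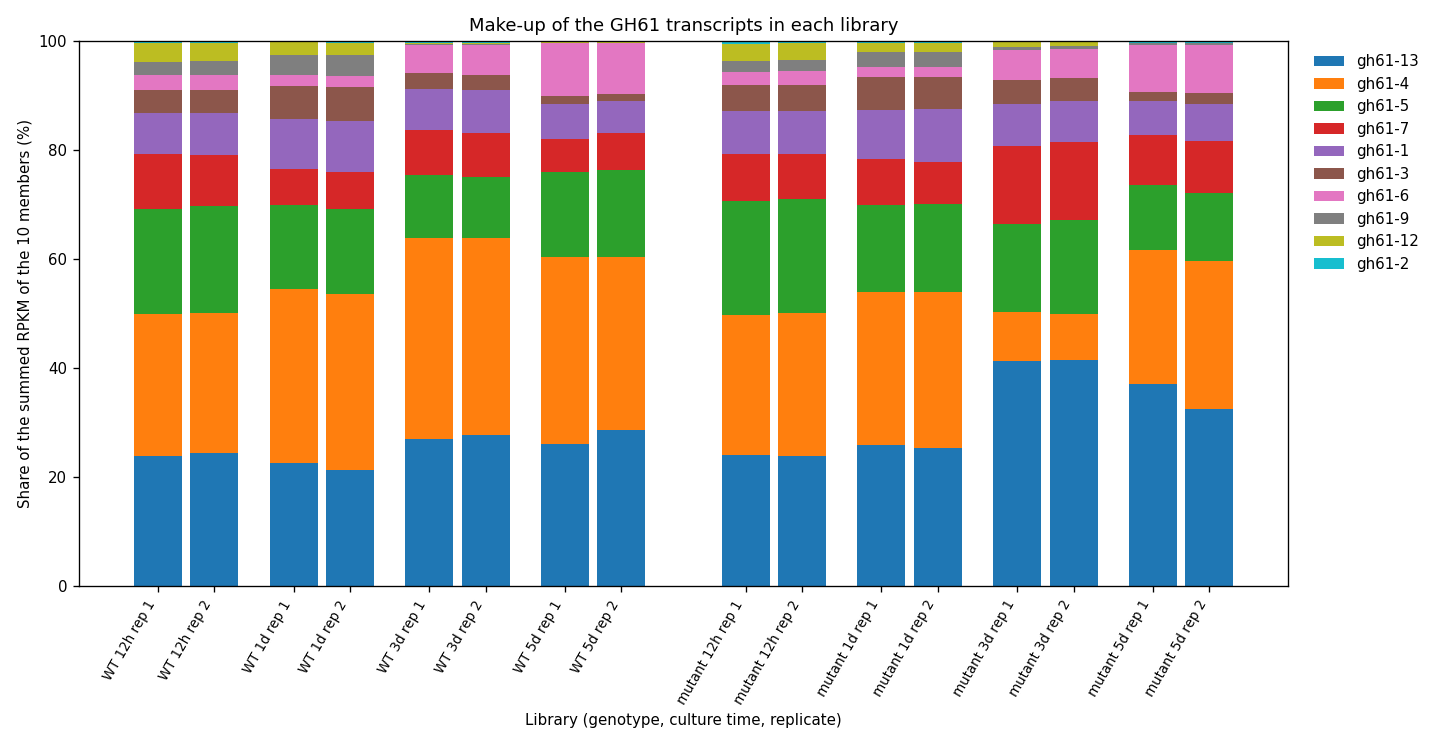
Share of the summed RPKM of the 10 GH61 members (percent, stacked) held by each member in each of the 16 libraries. The block of gh61-4 takes 8.74% on average in the 2 mutant libraries at 3d, against 36.5% in WT at that time.

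At 5d the order of the strains was turned round. The test passed for 9 of 10 members, all lower in the mutant, against 30.9% of all genes lower. Levels of gh61-5 were 2129 and 1704 in WT and 809 and 839 in the mutant, a log2 fold change of -1.22 ± 0.111 (adjusted p = 1.03e-07). For gh61-4 they were 4679 and 3399 against 1685 and 1821, a log2 fold change of -1.20 ± 0.116 (adjusted p = 2.17e-07). Both WT libraries exceeded both mutant libraries in each gene, although the WT libraries differed from each other by more than the mutant ones did.

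The other abundant members were lower in the mutant at 5d as well, with log2 fold changes of -0.75 in gh61-1, -0.49 in gh61-13 and -0.29 in gh61-7. Of the scarce members, gh61-6 was lower by -0.96, with levels of 1317 and 988 in WT and 591 and 595 in the mutant. Smaller differences were called for gh61-3 (-0.50), gh61-12 (-0.44) and gh61-2 (-0.44). The exception, gh61-9, had 17.4 and 14.8 against 16.5 and 16.4, so its genotypes overlapped (log2 fold change 0.03, 95% interval -0.14 to 0.20, adjusted p = 0.757).

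The median over the 10 members at 5d was -0.49, against -0.01 over all genes. Without WT 5d replicate 1, the higher of the 2 for 10 of 10 members, gh61-3 (adjusted p = 0.0726), gh61-7 (adjusted p = 0.141) and gh61-2 (adjusted p = 0.319) lost their calls and 6 members remained called. The call of gh61-7 was also lost without either mutant 5d library, at adjusted p = 0.113 and 0.0636.

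Followed in time, the GH61 transcripts of WT fell between 1d and 3d. From 12h to 1d, 6 of 10 members fell and 2 rose, gh61-9 by 0.34 and gh61-3 by 0.32 on the log2 scale, against 30.7% of all genes lower and 26.1% higher. The call of gh61-3 was lost when 1 of 4 libraries was left out, with adjusted p of 0.0559 to 0.194. From 1d to 3d all 10 fell, against 37.1% of all genes lower, with a median log2 fold change of -1.88 against 0.11 over all genes.

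The scarce genes gh61-12 and gh61-9 fell the most in that WT step, by 61.2-fold and 55.0-fold (log2 fold changes -5.94 ± 0.102 and -5.78 ± 0.0929). Among the others, gh61-3 fell by 2.96, gh61-5 by 2.31, gh61-1 by 2.10 and gh61-4 by 1.66. The smallest fall was that of gh61-6, at -0.48 (adjusted p = 0.000449), which was 0.01 with library totals alone (adjusted p = 0.934), a scaling that moves the median of all genes in this step from 0.11 to 0.59.

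From 3d to 5d in WT, gh61-6 rose by 1.08 and gh61-5 by 0.71, against 27.1% of all genes higher. Over the same step gh61-3 fell by 0.74, gh61-9 by 0.64 and gh61-2 by 0.44, against 27.5% lower. The changes of gh61-1 and gh61-4 were not called, and their sign depended on which library was left out. Over these fits gh61-1 ran from -0.38 to 0.10 and gh61-4 from -0.16 to 0.30. The fall of gh61-2 was lost when 1 of 2 libraries was left out, with adjusted p of 0.0719 and 0.145.

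In the mutant, the step in which all 10 members fell was the one from 3d to 5d. From 12h to 1d, 5 of 10 members fell, gh61-12 the most with -1.13, against 19.3% of all genes lower. From 1d to 3d, 4 members rose, against 35.6% of all genes higher, and 3 fell, against 37.0% lower. Those that rose were gh61-6 by 1.73, gh61-7 by 1.05, gh61-13 by 0.90 and gh61-5 by 0.26, the last of them (adjusted p = 0.0430) losing its call in 11 of the 16 fits that left out a library. Those that fell were gh61-9 by 1.83, gh61-4 by 1.49 and gh61-12 by 0.98. The falls from 3d to 5d, against 31.2% of all genes lower, had a median of -2.82. They ran from -4.98 in gh61-12 to -0.90 in gh61-4.

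The change of the genotype difference from one time to the next was tested in the same fit. Between 12h and 1d the genotype difference changed in 2 of 10 members. It moved lower in gh61-12 (-0.38, adjusted p = 0.0272), against 9.42% of all genes, and higher in gh61-7 (0.45, adjusted p = 0.0400), against 12.2%. Each of these was lost when 1 of 6 libraries was left out, with adjusted p up to 0.121 and 0.218. From 1d to 3d it moved towards the mutant in 9 members, against 26.2% of all genes, with gh61-4 at 0.17 (95% interval -0.18 to 0.51, adjusted p = 0.407). From 3d to 5d it moved towards WT in all 10, against 25.5% of all genes, by -4.76 in gh61-12 to -0.99 in gh61-4. The test of equal genotype differences at the 4 times was past the threshold for all 10, against 77.5% of all genes.

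Abundant and scarce members differed in range more than in direction. The highest over the lowest group mean was 6.57 for gh61-13, 6.82 for gh61-4, 7.87 for gh61-1, 8.42 for gh61-7 and 10.2 for gh61-5. Among the scarce members it was 3.68 for gh61-6, 8.96 for gh61-2, 18.4 for gh61-3, 85.6 for gh61-9 and 163 for gh61-12. The scarce set thus held both the narrowest and the 3 widest ranges among the 10 members. The median fall of WT from 1d to 3d was -1.66 in the abundant and -2.96 in the scarce set, and the sets were not compared by a test.

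**Figure D4:**
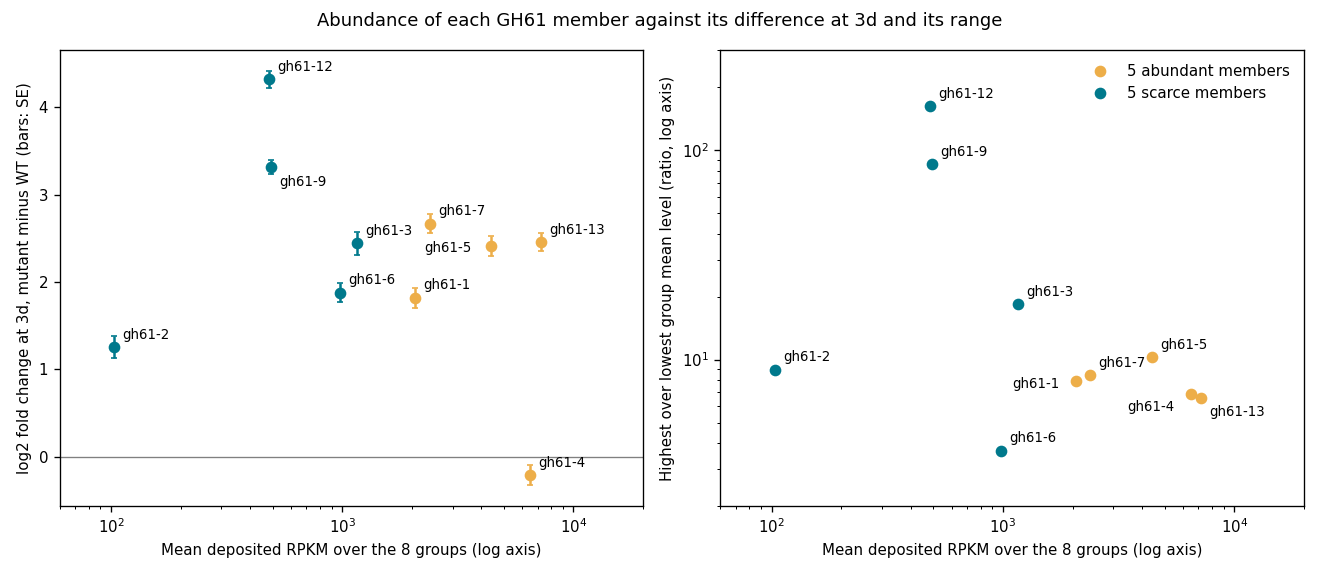
Mean deposited RPKM of each GH61 member over the 8 groups (log axis) against its log2 fold change of mutant over WT at 3d with SE bars (left) and against its highest over lowest group mean level (right, log axis). The scarce genes gh61-12 and gh61-9 lie highest in both panels, at 4.32 and 3.31 and at 163 and 85.6, while gh61-4 lies lowest on the left at -0.21 and gh61-6 lowest on the right at 3.68.

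The profiles over the 8 groups were close for most members. As a description over these groups, which share the same 16 libraries, Pearson's r between a member's log2 profile and the mean of the other 9 was 0.924 to 0.991 for 8 members. It was 0.812 for gh61-4 and 0.358 for gh61-6, which among the 10 members was the one whose WT libraries at 5d overlapped those at 12h, with 1317 and 988 against 1201 and 1186. The closest pair of members was gh61-1 and gh61-3, at r = 0.994, and the farthest gh61-4 and gh61-6, at 0.0325. Among the 2072 other genes with a mean CPM (reads scaled to a common library total) of at least 100, the 5 profiles most like the mean of the members were those of NCU09223, a protein disulfide-isomerase (r = 0.994), cdh-1 (0.992), NCU09524 (0.991), NCU05864 (0.990) and trp-3, tryptophan synthetase (0.987).

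The 4 AA9 loci outside the 10 were low, with mean RPKM of at most 80.3, and did not share 1 time course. The level of gh61-8 (NCU03000) was 2.03 and 2.09 in WT at 12h, 7.04 and 10.2 at 1d, 39.8 and 41.3 at 3d and 212 and 148 at 5d, so it was highest where the members were low. NCU07974, in contrast, was highest in WT at 12h, with 62.5 and 62.2, and stood at 20.5 and 24.6 at 5d. In the mutant at 3d, gh61-8 reached 258 and 274, above all of its WT libraries, with a log2 fold change of 2.72. Of the 4 loci, gh61-8 and gh61-11 (NCU07520) were higher in the mutant at 3d, against 29.4% of all genes higher. NCU07974 was lower (-0.77), against 30.0% of all genes lower. All 4 were lower at 5d, against 30.9% of all genes lower. The starch-active oxygenase NCU08746 was higher in the mutant both at 3d (3.73) and at 5d (1.86).

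Genes that work with the GH61 enzymes moved in the same directions at 3d. The cellobiose dehydrogenase cdh-1, the electron donor expressed on cellulose, had levels of 355 and 309 in WT and 1951 and 2340 in the mutant, a log2 fold change of 2.69 (adjusted p = 8.49e-12). Its scarce paralog cdh-2 was higher as well, at 1.79, and at 5d cdh-1 was lower, at -1.49, with cdh-2 at -0.18 (adjusted p = 0.107). All 9 hydrolytic cellulases were higher in the mutant at 3d, against 29.4% of all genes higher, with a median log2 fold change of 1.98. At 5d, 7 of 9 were lower, against 30.9% of all genes lower, with a median of -1.04. At 12h, 2 of the 9 were lower, against 6.51% of all genes lower. At 1d, 2 were lower, against 18.0% of all genes lower, and 1 was higher. At that time 3337 of 8983 genes were called in either direction, 1619 of them lower.

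Among 5 transcription factor genes of the pathway, the cellulase activator clr-2 was higher in the mutant at 1d (0.89) and 3d (1.39), and clr-1 likewise (0.44 and 0.53). The xylanase activator xlr-1 was higher at 12h (0.30), 1d (0.84) and 5d (0.58). The carbon catabolite repressor cre-1 was lower at 1d (-1.05) and higher at 5d (1.67), and the regulator vib-1 was lower at 12h (-0.23) and higher at 1d (0.38), 3d (0.75) and 5d (0.98). At 1d, 4 of the 5 regulator genes were higher in the mutant and cre-1 was lower, with 3337 of 8983 genes called in either direction, 1619 of them lower. The mutant libraries at 1d spread widely for clr-2, at 104 ± 24.2 against 56.1 ± 0.423 in WT (SD, n = 2). For cre-1 the levels were 59.0 ± 20.0 in the mutant and 122 ± 8.46 in WT. The 4 GH61 members called at 1d were lower, against 18.0% of all genes lower. With scaling by library totals alone, 2 members were called. Whether the regulator transcripts bear on the GH61 levels was not tested.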

How the data were processed

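Reads were aligned with TopHat2 2.0.8b and counted with HTSeq 0.5.4p3, per the submitters' processing notes; genome build and strand setting are not given in the sources used here. The authors deposited 1 table with a raw read count and an RPKM value per gene and library. All 146267 deposited RPKM values above 0 equalled the count over the gene total and 1 length per gene, within a relative tolerance of 0.001. Rows naming no gene were left out; they held 6.86% of the reads in WT 3d replicate 2 and 4.43% in mutant 5d replicate 1.

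Counts were tested with edgeR 4.0.16 in R 4.3.3 (filterByExpr, TMM, quasi-likelihood F test) in 1 fit of 8 group means over 16 libraries, with 8 residual degrees of freedom and Benjamini-Hochberg adjustment over 8983 genes; calls are adjusted p under 0.05. The fit was tested on simulated data. TMM factors ran from 0.840 to 1.25. Levels are deposited RPKM divided by TMM factors. DESeq2 1.42.0, its size factors, library totals alone, no filter, a replicate block and leaving out each library were tried. The members, gene lists and order of abundance were chosen with earlier results of these data known. All 10 members and all genes of the lists could be named, and the 5 genes most like the members in profile were named by correlation. Gene neighbours come from RefSeq's NC12 table.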

Additional observations from a re-analysis of the deposited data

Results flagged for a closer look

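The genotype difference varied over the 4 times in all 10 members, by an edgeR F test of equal differences that also called 77.5% of all genes. The adjusted p was 1.08e-13 for gh61-12, 2.84e-13 for gh61-9, 1.00e-10 for gh61-5, 1.07e-10 for gh61-7 and 1.09e-10 for gh61-13. It was 5.22e-10 for gh61-6, 1.92e-09 for gh61-3, 5.50e-09 for gh61-1, 1.90e-06 for gh61-2 and 8.73e-05 for gh61-4. Between neighbouring times, the change in genotype difference was called for 2 members from 12h to 1d (1 higher, against 12.2% of all genes, and 1 lower, against 9.42%). It was called for 9 from 1d to 3d, all higher against 26.2% of all genes, and for 10 from 3d to 5d, all lower against 25.5%.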

How the results depend on the processing

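Of 14 comparisons of the 10 members, 11 counts of called members stayed within 1.5 times under every setting run. With the replicate number as a block, the counts were 4, 4, 9 and 9 for the genotype at 12h, 1d, 3d and 5d and no member's call changed; deviations of same-numbered libraries correlated at -0.145 to 0.0891 between groups, so the numbers were not taken to pair samples. Library totals alone gave 2 at 1d and 1 for the change of the genotype difference from 12h to 1d; leaving out 1 library gave 1 to 4 at 12h, 2 to 5 at 1d, 6 to 9 at 5d and 0 to 2 for that change, fewer samples being left. Library totals moved the median of all genes at 3d from -0.02 to -0.25.

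Values that changed sign under a setting were mostly not called as reported. In WT from 3d to 5d, gh61-1 kept its sign at -0.38 without WT 5d replicate 1, and gh61-4 at 0.30 without WT 5d replicate 2. The exception, called as reported, was gh61-6 in WT from 1d to 3d, at -0.48. With library totals the values became 0.029 for gh61-3 at 12h, 0.0081 for gh61-5 and 0.013 for gh61-2 at 1d, -0.069 for gh61-9 at 5d, 0.0084 for gh61-6 in WT from 1d to 3d, 0.093 for gh61-1 in the mutant from 12h to 1d and, for the change of genotype difference from 12h to 1d, 0.029 for gh61-5, 0.062 for gh61-1 and 0.069 for gh61-2, with -0.22 for gh61-4 from 1d to 3d. With DESeq2 size factors in edgeR and with DESeq2, gh61-13 at 1d became -0.0073 and -0.0071, and the change of gh61-6 from 12h to 1d -0.0048 and -0.0049; the cause was not tested. Leaving out 1 library gave, for the mutant against WT, -0.074 to 0.058 for gh61-3 at 12h, -0.061 to 0.10 for gh61-13 and -0.092 to 0.19 for gh61-7 at 1d, and -0.089 to 0.16 for gh61-9 at 5d. Over WT from 3d to 5d it gave -0.38 to 0.10 for gh61-1 and -0.16 to 0.30 for gh61-4. Over the mutant from 12h to 1d it gave -0.017 to 0.0054 for gh61-1 and -0.041 to 0.16 for gh61-3, and from 1d to 3d -0.20 to 0.0051 for gh61-1. For the change of genotype difference from 12h to 1d it gave -0.059 to 0.081 for gh61-6 and -0.16 to 0.054 for gh61-2.

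As shares of counts in place of RPKM, the 10 members took 4.31%, 3.66%, 1.25% and 1.54% in WT and 3.90%, 3.49%, 4.23% and 0.803% in the mutant, since counts weigh genes by length. The same 5 members were the abundant ones when ordered by WT at 12h or by counts. Their order differed by counts, where gh61-5 came ahead of gh61-13 and gh61-4, which at 717 bp were the shortest members. As a share of GH61 counts at 3d, gh61-4 made up 25.7% in WT and 5.61% in the mutant. The share of gh61-13 by counts was then 19.2% in WT and 26.6% in the mutant.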
